A study of Arabidopsis thaliana with 12 samples.

Results

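The 58 members described here are the genes of the WRKY family of transcription factors that were listed for this work by locus identifier, out of 33323 nuclear genes in the whole gene count files. All 58 listed identifiers were present in the whole gene, gene body and TSS (transcription start site) files of the 12 libraries. Counts and ranks given below for the family or a subgroup refer to these 58 genes only, and WRKY genes outside the list were not described. Occupancy of RNA polymerase II was measured in seedlings of Arabidopsis thaliana (ecotype Columbia, 10 days after sowing) by sequencing of immunoprecipitated chromatin, with antibodies against the polymerase phosphorylated at serine 2 (S2P) or serine 5 (S5P) of its C-terminal domain. The libraries formed 4 groups of 3. S2P induced libraries came from tfIIs-1 mutants (SALK_056755) given 2 mM b-estradiol for 24 h and labelled as expressing GFP-TFIIS, a fusion of the transcript elongation factor TFIIS (AT2G38560). S2P mock libraries came from tfIIs-1 plants given ethanol for the same time. S5P induced libraries came from tfIIs-1 plants given b-estradiol and labelled as expressing GFP-TFIISmut, a mutated form of the fusion, and S5P mock libraries from tfIIs-1 plants given ethanol. All groups thus carried tfIIs-1, an insertion in the TFIIS gene, and the labels do not name the transgene of the mock plants. By the labels, the antibody cannot be told apart from the protein induced between the S2P and the S5P comparison. Nor can the estradiol treatment be told apart from that protein within each. The series title names TFIISmut only, so the sources differ on the protein induced in the S2P libraries. The labels do not say that replicates were grown separately, and p-values therefore measure only the spread of these libraries, which may be technical.

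WRKY proteins bind the W-box element of promoters through the WRKY domain, a conserved stretch followed by a zinc finger. Subgroup I members carry a pair of these domains, subgroup II members (IIa to IIe) carry a single one, and subgroup III members carry a single one with a different zinc finger. Many of them act in defence, in salicylate and jasmonate signalling, in leaf senescence and in the response to phosphate shortage, and a number are phosphorylated by mitogen-activated protein kinases or bound by small VQ proteins. Several WRKY genes are early-response genes whose transcription reacts quickly to handling, wounding or elicitors.

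Whole gene reads in nuclear genes numbered 1650892, 1156568 and 210421 in S2P induced replicates 1 to 3, against 159951, 192044 and 2537034 in S2P mock replicates 1 to 3. They numbered 1648866, 115868 and 1341826 in S5P induced replicates and 628487, 362807 and 1277600 in S5P mock replicates. Levels are in CPM, counts scaled to the same total of nuclear gene reads in each library; they are not corrected for gene length and are compared only within a gene. In S2P induced replicate 3, S2P mock replicates 1 and 2 and S5P induced replicate 2, between 45 and 52 of the 58 members had fewer than 10 reads. In those libraries 3 reads equalled 14.3, 18.8, 15.6 and 25.9 CPM. Most reads of every library were counted as not aligned, from 74.7% in S2P mock replicate 3 to 96.7% in S2P mock replicate 2. The share was 95.3% in S2P induced replicate 3, 95.2% in S2P mock replicate 1, 96.1% in S5P induced replicate 2 and 95.4% in S5P mock replicate 2. S5P induced replicate 2 also stood apart by its share of reads outside genes, 38.6% against 16.1% to 33.4% in the other libraries. Shoot marker genes (RBCS1A, CAB1 and LHCB2.1) summed to 43.2 to 500 CPM, against 25.9 to 88.5 CPM for 6 seed genes; they were lower than the seed genes in S2P mock replicate 2 (67.7 against 88.5 CPM). Within each antibody, the summed level of 4 root marker genes was lower in every induced than in every mock library. It was 85.4, 90.8 and 80.8 CPM in S2P induced, against 113, 115 and 143 CPM in S2P mock libraries. For S5P the root marker sums were 110, 60.4 and 119 CPM in induced and 173, 124 and 193 CPM in mock libraries. The seed gene sums were separate in S2P, at 36.9, 45.0 and 47.5 CPM in induced and 68.8, 88.5 and 54.8 CPM in mock libraries, and overlapped in S5P, while the shoot marker sums overlapped with both antibodies. The part of these tissue markers in the differences of the WRKY genes was not tested, and in bulk seedlings fewer cells of a type and lower occupancy per cell cannot be told apart. In S5P induced replicate 2, CAB1, 1 root marker and 4 seed genes were at 0. Read sums over all 58 WRKY genes were 2938 ± 813 CPM in S2P induced and 2401 ± 594 CPM in S2P mock libraries (SD, n = 3 each). For S5P they were 3606 ± 636 CPM in induced and 2941 ± 984 CPM in mock libraries (SD, n = 3 each), so that both differences were within 1 SD of a group.

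Too few reads for a test with either antibody were found for 5 members: WRKY12, WRKY43 and WRKY71 of subgroup IIc and WRKY30 and WRKY41 of subgroup III. WRKY43 had 43 reads over all 12 libraries, at most 8.63 CPM, and was at 0 in S2P induced replicate 1 and S2P mock replicate 1. WRKY12, which acts in pith cell walls and flowering time, had 127 reads in all, and WRKY71, which acts in shoot branching, had 98. WRKY30 had 120 reads and WRKY41, a regulator of seed dormancy, had 87. A further 7 members passed the filter on low counts with S5P alone, namely WRKY27, WRKY35, WRKY38, WRKY50, WRKY55, WRKY62 and WRKY74. The filter thus left 46 members for S2P and 53 for S5P, and 41 of the 58 had at least 1 read in every library. By subgroup, the tested members numbered 10 of 10 (I), 3 of 3 (IIa) and 8 of 8 (IIb) with both antibodies. They numbered 10 of 14 with S2P and 11 of 14 with S5P in IIc, 6 and 7 of 7 in IId, 5 and 7 of 7 in IIe, and 4 and 7 of 9 in III.

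The first question was which WRKY genes differed in occupancy between induced and mock plants. With the S2P antibody, WRKY6, WRKY70, WRKY45, WRKY75 and WRKY46 were higher in every induced than in every mock library, by 2.6 to 4.2 times, but none passed the threshold in edgeR. WRKY6 (AT1G62300), a regulator of senescence, defence and the response to phosphate shortage, had 351, 293 and 299 CPM in S2P induced libraries, against 56.3, 93.7 and 102 CPM in S2P mock libraries. The log2 fold change was 2.08 (SE 0.50, edgeR adjusted p = 0.227). The gap between the groups was wide, and the lowest induced library stood well above the highest mock library. WRKY70 (AT3G56400), which acts in salicylate signalling and restrains jasmonate responses and senescence, had 354, 195 and 80.8 CPM in S2P induced libraries, against 62.5, 52.1 and 78.4 CPM in S2P mock libraries. Its log2 fold change was 1.90 (SE 0.55, edgeR adjusted p = 0.381). The groups barely parted, since induced replicate 3, with 17 reads, lay just above mock replicate 3.

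WRKY45 (AT3G01970), which acts in phosphate uptake and senescence, had 46.6, 85.6 and 42.8 CPM in S2P induced libraries, against 18.8, 15.6 and 24.4 CPM in S2P mock libraries. Its log2 fold change of 1.61 (SE 0.38) had the smallest unadjusted p of the family, 0.00075, at an edgeR adjusted p of 0.209. WRKY75 (AT5G13080), a regulator of the response to phosphate shortage and of senescence, had 44.2, 46.7 and 28.5 CPM in S2P induced libraries, against 6.25, 20.8 and 19.7 CPM in S2P mock libraries. WRKY46 (AT2G46400), a relative of WRKY70 that acts in basal defence, had 67.2, 43.2 and 28.5 CPM in S2P induced libraries, against 12.5, 26.0 and 22.5 CPM in S2P mock libraries. For both genes the groups were separate and the lowest induced value came from the shallow induced replicate 3. The log2 fold change was 1.40 for each (SE 0.39 for WRKY75 and 0.42 for WRKY46), with edgeR adjusted p of 0.322 and 0.405.

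**Figure D1:**
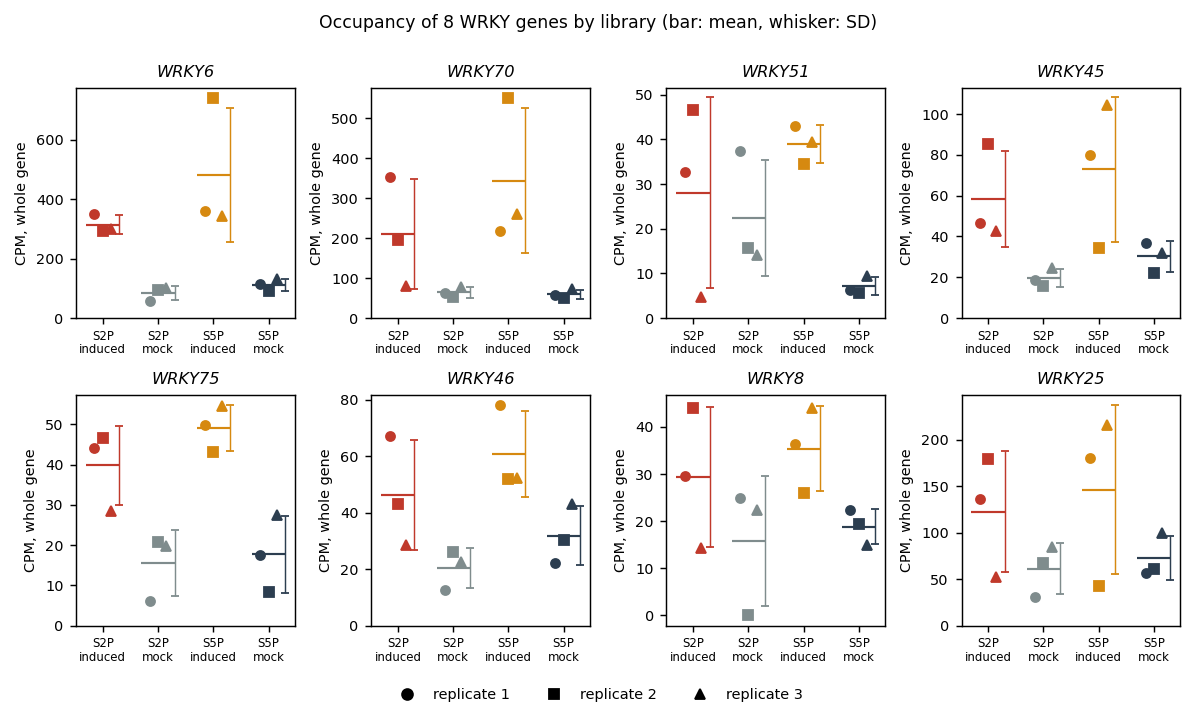
Whole gene occupancy of 8 WRKY genes in CPM (vertical axes, from 0) for each library of S2P induced, S2P mock, S5P induced and S5P mock plants. Symbols are replicates, bars the mean and whiskers the SD (n = 3). WRKY6 and WRKY70 are highest in S5P induced replicate 2, at 742 and 552 CPM, while WRKY51 is separate between the S5P groups and not between the S2P groups.

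Across the 46 members tested with S2P, 0 passed the adjusted threshold in edgeR; 0.016% of all 18798 genes did, or 3 genes. Of the members 6 had an unadjusted p under 0.05 on the higher side and 0 on the lower side, where all genes gave 5.19% and 2.46%. A log2 fold change above 0 was found for 35 of 46 members, against 53% of all genes. In CPM, groups did not overlap, with induced higher, for 5 members (3.41% of all genes) and, with induced lower, for 3 members (9.31% of all genes). The median log2 fold change was 0.24 over the members and 0.04 over all genes. With scaling by total counts alone the median of all genes moved to -0.16, the median of the members to 0.05 and the number of positive members to 27. DESeq2 called 42 genes, 0.56% of the 7499 it tested, and WRKY6 was among them (log2 fold change 2.02, adjusted p = 0.0042). Without S2P induced replicate 2, edgeR called 526 of 6849 genes (7.68%), with WRKY6 (adjusted p = 0.0129), WRKY70 (0.0361) and WRKY31 (0.0476) among the 20 members left to test; the median of these members was then -0.12.

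The next members by unadjusted p on the higher side for S2P overlapped between the groups. WRKY25 (AT2G30250), a relative of WRKY33 that acts in heat and defence responses, had a log2 fold change of 1.11 (SE 0.47), and WRKY51 had 1.04 (SE 0.51). WRKY8 (AT5G46350), which acts in salt stress and virus defence, had 0.93 (SE 0.49), WRKY31 0.99 (SE 0.58) and WRKY54, a partner of WRKY70 in senescence and defence, 0.63 (SE 0.39). Adjusted p in edgeR ran from 0.623 to 0.705 for these 5 genes. On the lower side, WRKY34 and WRKY2, which act in pollen, had -0.67 (SE 0.39) and -0.55 (SE 0.35). WRKY69 had -0.73 (SE 0.49), WRKY72 -0.43 (SE 0.35) and WRKY3, which acts in defence against necrotrophic fungi, -0.41 (SE 0.36), with edgeR adjusted p from 0.689 to 0.791. In CPM, which the TMM factors do not enter, every induced library lay below every mock library for WRKY34, WRKY72 and WRKY3. WRKY34 had 12.1, 16.4 and 9.50 CPM in S2P induced libraries, against 25.0, 41.7 and 19.7 CPM in S2P mock libraries, and 2, 4 and 8 reads made up the values of the shallow induced replicate 3 and mock replicates 1 and 2.

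With the S5P antibody, 6 members were higher in every induced than in every mock library: WRKY51, WRKY70, WRKY6, WRKY75, WRKY8 and WRKY46. WRKY51 (AT5G64810), which with WRKY50 links salicylate to the repression of jasmonate signalling, had 43.1, 34.5 and 39.5 CPM in S5P induced libraries, against 6.36, 5.51 and 9.39 CPM in S5P mock libraries. The 3 induced libraries lay close together and far above the mock libraries, although mock values rested on 4, 2 and 12 reads and the value of induced replicate 2 on 4 reads. The log2 fold change was 2.47 (SE 0.37), the 4th smallest p of 21954 genes (2.4e-05), with an edgeR adjusted p of 0.0853. Every S5P mock library was under the level of the low-count filter, so WRKY51 entered this test through its induced libraries alone. DESeq2's adjusted p for it was 0.00656. WRKY51 was the one member that passed in edgeR without a filter on low counts (adjusted p = 0.0121, where 0.0866% of genes passed) and with all 12 libraries in the fit (0.0400, where 0.134% passed). In S2P, where it had 32.7, 46.7 and 4.75 CPM in induced and 37.5, 15.6 and 14.2 CPM in mock libraries, the groups overlapped.

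WRKY70 had 219, 552 and 260 CPM in S5P induced libraries, against 57.3, 49.6 and 72.0 CPM in S5P mock libraries, and a log2 fold change of 2.80 (SE 0.67, edgeR adjusted p = 0.331). WRKY6 had 360, 742 and 345 CPM in S5P induced libraries, against 115, 91.0 and 131 CPM in S5P mock libraries, and 2.39 (SE 0.70, edgeR adjusted p = 0.498). Both genes peaked in S5P induced replicate 2, the shallowest library, where they had 64 and 86 reads. Together they made up 43.9% of all WRKY reads there, against 13.3% to 23.1% in the other induced libraries of both antibodies and 4.97% to 7.19% in mock libraries. Without that library the log2 fold changes were lower, at 2.08 for WRKY70 and 1.74 for WRKY6, and both passed in edgeR (adjusted p = 0.00550 and 0.0215), as did WRKY51 (0.00222) and WRKY45 (1.66, 0.0133). In that fit 302 of 26076 genes passed (1.16%). DESeq2 on all 6 libraries called WRKY70 and WRKY6 too (adjusted p = 0.00297 and 0.0292), among 92 genes or 0.625% of those it tested.

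WRKY75 had 49.7, 43.2 and 54.4 CPM in S5P induced libraries, against 17.5, 8.27 and 27.4 CPM in S5P mock libraries (log2 fold change 1.48, SE 0.41). WRKY8 had 36.4, 25.9 and 44.0 CPM in S5P induced libraries, against 22.3, 19.3 and 14.9 CPM in S5P mock libraries (1.19, SE 0.34). WRKY46 had 78.2, 51.8 and 52.2 CPM in S5P induced libraries, against 22.3, 30.3 and 43.0 CPM in S5P mock libraries (1.08, SE 0.40). These groups were separate by a narrow margin for WRKY8 and WRKY46, and the edgeR adjusted p of the 3 genes ran from 0.454 to 0.608. WRKY45 had 80.1, 34.5 and 104 CPM in S5P induced libraries, against 36.6, 22.1 and 32.1 CPM in S5P mock libraries (log2 fold change 1.50, SE 0.42, edgeR adjusted p = 0.454). In CPM, without the TMM factors, its induced replicate 2 lay inside the range of mock. WRKY25 had 1.19 (SE 0.55), WRKY48, a repressor of basal defence, 1.04 (SE 0.55) and WRKY17, a calmodulin-binding repressor of basal resistance, 0.87 (SE 0.41), with edgeR adjusted p from 0.664 to 0.678.

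Across the 53 members tested with S5P, 0 passed in edgeR, and 0 of all 21954 genes did (0%). Of the members 7 had an unadjusted p under 0.05 on the higher side and 0 on the lower side, where all genes gave 4.32% and 3.19%. A positive log2 fold change was found for 32 of 53 members, against 49.4% of all genes. In CPM, groups did not overlap with induced higher for 6 members (2.95% of all genes) and with induced lower for 4 members (13.7% of all genes). The 4 were WRKY69 (log2 fold change -0.80, SE 0.42), WRKY9 (-0.66, SE 0.39), WRKY2 (-0.51, SE 0.34) and WRKY3, and WRKY69 and WRKY9 were at 0 in S5P induced replicate 2. WRKY74 had -0.64 (SE 0.46). The edgeR adjusted p of these lower members other than WRKY3 ran from 0.678 to 0.743. The median log2 fold change was 0.13 over the members and -0.01 over all genes; with scaling by total counts alone the medians were -0.00025 and -0.15, so the sign of the members' median turned.

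By subgroup, positive and negative values were mixed in each of them for S5P. In S2P the median log2 fold change of the tested members was 0.09 in I, 0.08 in IIa, 0.29 in IIb, 0.47 in IIc, 0.34 in IId, 0.21 in IIe and 1.02 in III. In S5P it was -0.03 in I, -0.05 in IIa, -0.04 in IIb, 0.44 in IIc, 0.33 in IId, -0.09 in IIe and 0.35 in III. Subgroup IIc held WRKY45, WRKY75, WRKY51 and WRKY8, and subgroup III held WRKY70 and WRKY46, so the members with the smallest p came from these subgroups and, with WRKY6, from IIb. Within IIc, WRKY13 and WRKY23 had log2 fold changes under 0 with both antibodies, and within III so did WRKY53, a regulator of senescence (-0.38, SE 0.36 in S2P and -0.46, SE 0.44 in S5P). WRKY50 was tested with S5P alone and had 20.6, 17.3 and 20.1 CPM in S5P induced libraries, against 22.3, 13.8 and 13.3 CPM in S5P mock libraries (0.41, SE 0.35), so that, unlike WRKY51, its groups overlapped. No test of WRKY51 against WRKY50 was made.

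**Figure D2:**
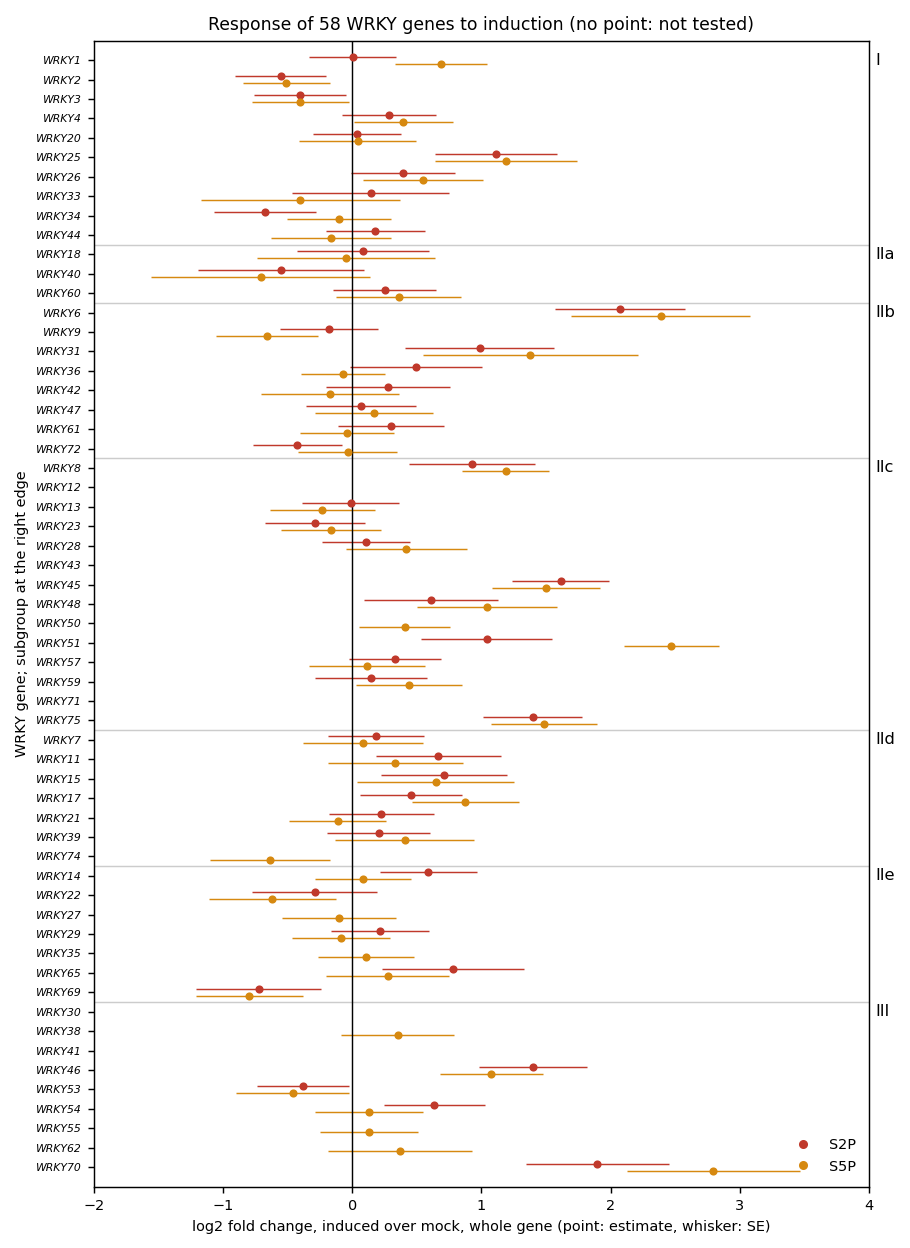
Log2 fold change of induced over mock plants in whole gene occupancy (horizontal axis) for each WRKY gene, ordered by subgroup from I at the top to III at the bottom, for S2P and S5P. Points are edgeR estimates and whiskers the SE; genes with no point were not tested. WRKY70, WRKY51 and WRKY6 lie farthest to the right in S5P, at 2.80, 2.47 and 2.39, and no member lies left of -1.

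A different pattern was found for WRKY33, WRKY40, WRKY18 and WRKY15, whose mock replicates differed more from each other than the groups did. WRKY33 (AT2G38470), which activates camalexin synthesis and protects against necrotrophic fungi, had 202, 314 and 143 CPM in S2P induced libraries, against 106, 98.9 and 435 CPM in S2P mock libraries. In S5P it had 321, 86.3 and 370 CPM in induced and 189, 185 and 755 CPM in mock libraries. Mock replicate 3 was the highest of the 6 libraries with both antibodies, while mock replicates 1 and 2 lay below most induced libraries. WRKY40 (AT1G80840), a repressor of abscisic acid signalling and an early-response gene, had 95.7, 175 and 33.3 CPM in S2P induced libraries, against 81.3, 52.1 and 340 CPM in S2P mock libraries. In S5P it had 158, 25.9 and 209 CPM in induced and 90.7, 71.7 and 548 CPM in mock libraries. WRKY18, a partner of WRKY40, had 173 CPM in S2P mock replicate 3 against 31.2 and 81.3 CPM in the other S2P mock libraries, and 263 CPM in S5P mock replicate 3 against 44.1 and 92.3 CPM in the other S5P mock libraries. In S5P mock replicate 3 WRKY33, WRKY40 and WRKY18 stood above every other S5P library.

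With all libraries, the log2 fold changes of WRKY33, WRKY40 and WRKY18 were 0.14 (SE 0.61), -0.55 (SE 0.64) and 0.08 (SE 0.51) in S2P and -0.40 (SE 0.77), -0.71 (SE 0.85) and -0.05 (SE 0.69) in S5P. Without mock replicate 3 they were 1.07, 0.63 and 0.80 in S2P and 0.64, 0.88 and 0.94 in S5P. The sign turned for WRKY40 with both antibodies and for WRKY33 and WRKY18 in S5P, and none passed in edgeR with or without that replicate. WRKY60, a further partner of subgroup IIa, had 30.7 CPM in S2P mock replicate 3 against 37.5 and 26.0 CPM in the other S2P mock libraries, and log2 fold changes of 0.25 (SE 0.40) in S2P and 0.36 (SE 0.48) in S5P. WRKY15, which acts in osmotic and mitochondrial stress, had 103, 171 and 71.3 CPM in S2P induced libraries, against 56.3, 31.2 and 129 CPM in S2P mock libraries (0.71, SE 0.49). In S5P it had 138, 86.3 and 217 CPM in induced and 74.8, 46.9 and 193 CPM in mock libraries (0.64, SE 0.61). WRKY11, a relative of WRKY17, had 0.67 (SE 0.48) in S2P and 0.33 (SE 0.52) in S5P, and WRKY54 had 0.13 (SE 0.42) in S5P.

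WRKY22 (AT4G01250), which acts downstream of the kinase cascade of flagellin perception, had 38.2, 97.7 and 14.3 CPM in S2P induced libraries, against 37.5, 57.3 and 103 CPM in S2P mock libraries. In S5P it had 48.5, 43.2 and 108 CPM in induced and 95.5, 116 and 149 CPM in mock libraries. Its log2 fold changes were -0.29 (SE 0.48) and -0.62 (SE 0.49), and the groups overlapped with both antibodies. Another gene overlaps WRKY33, WRKY40 and WRKY53 and 9 other members (WRKY1, WRKY2, WRKY4, WRKY9, WRKY29, WRKY34, WRKY41, WRKY61 and WRKY69) in the RefSeq annotation. The counting set reads that fit more than 1 gene aside as ambiguous, from 2925 to 78570 per library. The use of strand in the counting is not given in the sources used here. How far the overlaps took reads from these members, or added reads to them, was not tested.

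**Figure D3:**
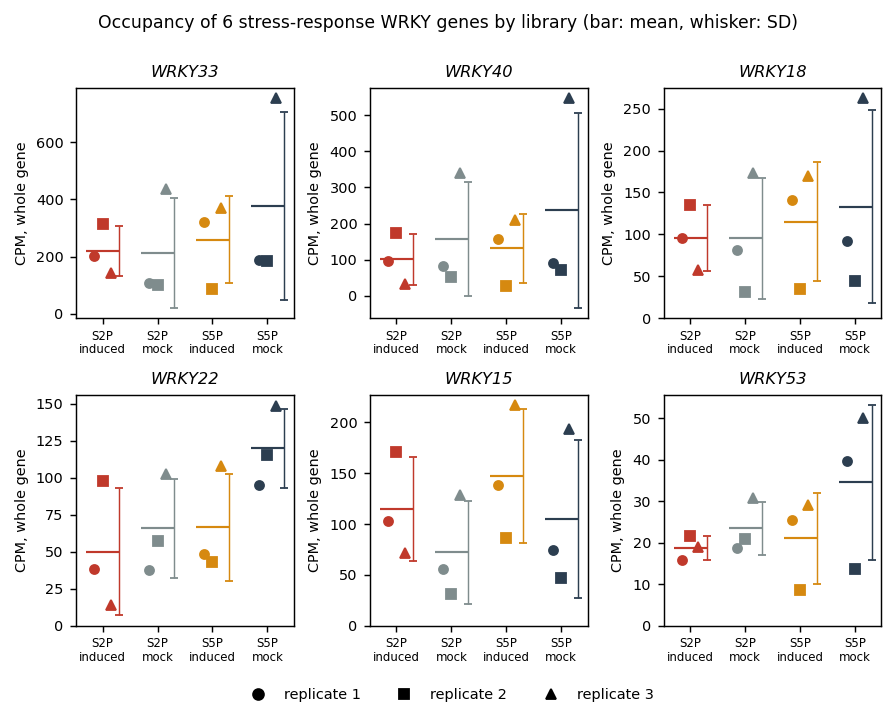
Whole gene occupancy of 6 stress-response WRKY genes in CPM (vertical axes) for each library of S2P induced, S2P mock, S5P induced and S5P mock plants. Symbols are replicates, bars the mean and whiskers the SD (n = 3). Mock replicate 3 is the highest mock library in all 6 panels with both antibodies, as for WRKY40 at 340 CPM in S2P and 548 CPM in S5P.

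The gene body and TSS files were used to ask whether the differences lay along the gene or at its start. In the gene body, WRKY6 had 360, 287 and 371 CPM in S2P induced libraries, against 60.8, 97.3 and 98.6 CPM in S2P mock libraries (4.27 times higher, SE 0.49 on the log2 scale, edgeR adjusted p = 0.220). WRKY45 and WRKY75 followed with log2 fold changes of 1.50 (SE 0.39) and 1.44 (SE 0.43). In S5P, WRKY70 had 157, 174 and 225 CPM in the gene body in induced libraries, against 31.8, 24.1 and 46.6 CPM in mock libraries (2.53, SE 0.46, edgeR adjusted p = 0.141). Its induced libraries lay closer together in the gene body than over the whole gene, with S5P induced replicate 2 no longer the highest. WRKY45 and WRKY8 followed with 1.46 (SE 0.37) and 1.35 (SE 0.35). In edgeR 0 of 40 members passed in S2P, where 0.00626% of 15968 genes did, and 0 of 46 in S5P, where 0% of 18722 did. At an unadjusted p under 0.05 there were 7 members in S2P (7.64% of all genes) and 10 in S5P (7.93% of all genes). DESeq2 called WRKY6 in S2P (adjusted p = 0.00624), among 0.359% of genes, and WRKY70 in S5P (0.000456), among 0.314% of genes. With S5P, edgeR also called WRKY70 and WRKY51 without a filter on low counts (0.168% of genes) and WRKY70 with all 12 libraries in the fit (0.226% of genes). Without S5P induced replicate 2, edgeR called WRKY70 (adjusted p = 0.00721) with WRKY6 and WRKY51, among 0.653% of genes, and without S2P induced replicate 2 it called WRKY6 (0.0117) with WRKY31, among 7.16% of genes.

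In the TSS window, 17 members could be tested in S2P and 29 in S5P, and 0 passed in edgeR, as did 0% of 3215 and of 5753 genes; 1 and 2 members had an unadjusted p under 0.05 (3.61% and 4.35% of all genes), and DESeq2 called 0. The smallest p in S2P were those of WRKY70 (log2 fold change 1.62, SE 0.81), WRKY6 (1.51, SE 0.81) and WRKY46 (0.90, SE 0.79). In S5P they were those of WRKY51 (2.46, SE 0.76), WRKY6 (2.01, SE 0.93) and WRKY70 (1.79, SE 0.93). WRKY51 had 34, 3 and 26 reads in the TSS window in S5P induced libraries, against 2, 1 and 3 reads in S5P mock libraries. Here too it passed the low-count filter through its induced libraries alone. With such counts the TSS window could show large differences only.

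Summed over the 58 genes, the TSS window held 33.0%, 28.6% and 25.4% of the reads of the TSS and gene body windows in S2P induced libraries, against 23.8%, 27.6% and 21.9% in S2P mock libraries. In S5P it held 28.2%, 48.4% and 28.7% in induced libraries, against 28.1%, 27.8% and 24.7% in mock libraries. The sum of the windows was 103.7% to 105.6% of whole gene reads. In S2P mock replicate 1, WRKY45 had 4 reads in the TSS window and 3 over the whole gene. With the window bounds not given, reads counted in both windows and reads outside the whole gene window cannot be told apart. S5P induced replicate 2 stood far above the rest, with an exact binomial 95% interval of 43.3% to 53.4%; the other 11 libraries lay between 21.9% and 33.0%. The mean share was 29.0 ± 3.8% in S2P induced and 24.4 ± 2.9% in S2P mock libraries, and 35.1 ± 11.5% in S5P induced and 26.9 ± 1.8% in S5P mock libraries (SD, n = 3 each). All genes with both windows had 25.5 ± 1.9% in S2P induced and 21.5 ± 1.3% in S2P mock libraries, and 27.2 ± 5.7% in S5P induced and 22.8 ± 1.0% in S5P mock libraries (SD, n = 3 each), with 33.7% in S5P induced replicate 2. These shares are given as a description, with no test.

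WRKY6 and WRKY70 carried much of the high share in S5P induced replicate 2. WRKY70 had 79.1% of its window reads in the TSS window there (exact binomial 95% interval 67.4% to 88.1%), against 47.3% and 34.4% in S5P induced replicates 1 and 3 and 57.9% and 49.0% in S5P mock replicates 1 and 3. WRKY6 had 60.7% there (51.0% to 69.8%), against 30.2% and 23.7% in S5P induced replicates 1 and 3 and 22.2% to 31.4% in S5P mock libraries. In S2P, WRKY70 had 67.5% in induced replicate 1 (63.7% to 71.2%) and 38.6% in induced replicate 2, against 37.1% in mock replicate 3, so that induced replicate 1 stood above both. Without WRKY6 and WRKY70, a choice made after seeing the data, the TSS share was 32.4% in S5P induced replicate 2 and 26.6% and 28.8% in the other S5P induced libraries, against 24.2% to 27.2% in S5P mock libraries. WRKY40 had 40.1% and 40.6% in S2P induced replicates 1 and 2, against 23.4% in S2P mock replicate 3, where its whole gene level was highest. In S5P its shares overlapped, at 42.3% and 36.9% in induced replicates 1 and 3, against 29.8%, 53.6% and 31.2% in mock replicates 1 to 3, and the 53.6% rested on 15 TSS and 13 gene body reads. These intervals cover counting error only.

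**Figure D4:**
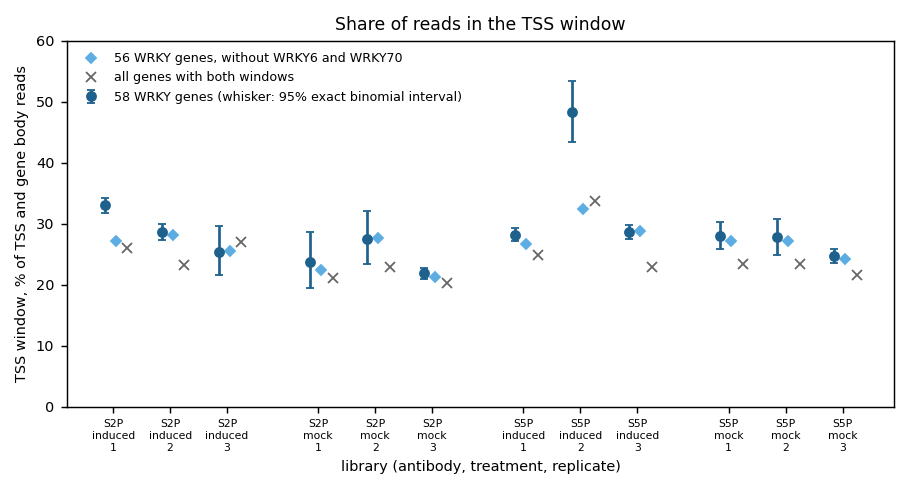
Share of TSS window reads among TSS and gene body reads in percent (vertical axis) for each library (horizontal axis, induced left of mock for each antibody). Circles are the 58 WRKY genes with exact binomial 95% intervals, diamonds the family without WRKY6 and WRKY70, and crosses all genes with both windows. In S5P induced replicate 2 the family is at 48.4%, at 32.4% without the pair, and all genes are at 33.7%.

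S5P was set against S2P in mock plants, where antibody is the difference the labels name. The mock libraries that share a replicate number deviated together, while same-numbered induced libraries of S5P and S2P did not (correlations -0.192, -0.491 and -0.339). The numbers are thus not shown to mark shared material, and fits are given with and without a block for them. The main fit was without the block. With the block, WRKY33 and WRKY22 were higher in S5P, with log2 differences of 0.84 (SE 0.20, edgeR adjusted p = 0.00489) and 0.73 (SE 0.20, edgeR adjusted p = 0.0314). WRKY33 had 189, 185 and 755 CPM in S5P mock replicates 1 to 3, against 106, 98.9 and 435 CPM in S2P mock replicates 1 to 3, and WRKY22 had 95.5, 116 and 149 CPM against 37.5, 57.3 and 103 CPM. In each of the 3 same-numbered pairs S5P was thus the higher for both genes. The blocked fit called 230 of 16388 genes (1.4%), with 2 of 40 members higher and 0 lower. Without the block, edgeR called 0 genes (0%) and 0 members; 2.27% of genes and 1 member had an unadjusted p under 0.05, and DESeq2 called 0. The smallest p of the family without the block were those of WRKY27 (1.07, SE 0.48), WRKY65 (0.93, SE 0.45) and WRKY22 (0.70, SE 0.35), and WRKY33 had 0.76 (SE 0.62). The S5P mock library of each pair also had a smaller part of its reads outside genes, at 23.8%, 28.7% and 22.3%, against 25.5%, 29.4% and 24.5% in S2P, and the part of that share in the result was not tested.

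An interaction term over all 12 libraries tested whether S5P and S2P responded differently to induction. In edgeR 0 of 55 members passed, as did 0% of 23793 genes; 0 members and 0.635% of genes had an unadjusted p under 0.05, and DESeq2 called 0. WRKY51 came closest, with a log2 difference between the S5P and the S2P response of 1.40 (SE 0.67, unadjusted p = 0.0512 and adjusted p = 0.9999 in edgeR). WRKY1 and WRKY62 followed with 0.69 (SE 0.53) and 0.88 (SE 0.80). The different results for WRKY51 with the antibodies are thus not shown to be a difference between them.

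Genes that work with WRKY factors were described from 3 lists. The lists, like the members, were chosen with earlier results of these data known. Their counts and medians beside those of all genes are therefore a description only, and no independent test. The first list held mitogen-activated protein kinase cascade genes, among them kinases that phosphorylate WRKY proteins and kinases that activate those. Of these genes 8 of 8 were tested, and 1 in S2P and 2 in S5P had an unadjusted p under 0.05 on the higher side (5.19% and 4.32% of all genes) and 0 on the lower side. Their median log2 fold change was 0.42 in S2P and 0.73 in S5P, against 0.04 and -0.01 over all genes. MPK6 (AT2G43790), which phosphorylates WRKY33, had 173, 91.7 and 228 CPM in S2P induced libraries, against 106, 41.7 and 59.5 CPM in S2P mock libraries (1.49, SE 0.52). In S5P it had 114, 293 and 88.7 CPM in induced and 74.8, 71.7 and 47.0 CPM in mock libraries (1.61, SE 0.62). As for WRKY6 and WRKY70, S5P induced replicate 2 was the highest S5P library, and without it the S5P value of MPK6 was 0.80. MKK5, MKK2 and MKK4, kinases that activate such kinases, had 0.71, 0.28 and 0.54 in S2P and 0.95, 0.92 and 0.88 in S5P.

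Of 11 VQ genes, whose small proteins bind WRKY factors, 7 were tested in S2P and 9 in S5P; 3 and 2 had an unadjusted p under 0.05 on the higher side (5.19% and 4.32% of all genes) and 0 on the lower side. Their medians were 0.74 and 0.79, against 0.04 and -0.01 over all genes. JAV1 (AT3G22160), a repressor of jasmonate defence that binds WRKY51, had 125, 104 and 148 CPM in S5P induced libraries, against 54.1, 41.3 and 48.5 CPM in S5P mock libraries (1.59, SE 0.43), and 1.06 (SE 0.41) in S2P. SIB1 (AT3G56710), which binds WRKY33, had 41.8, 17.3 and 35.0 CPM in S5P induced libraries, against 3.18, 0 and 16.4 CPM in S5P mock libraries (2.05, SE 0.56), where the groups were close to each other at 17.3 and 16.4 CPM. Of its S5P mock libraries only replicate 3 reached the level of the low-count filter, so SIB1 entered this test through its induced libraries. VQ8 had 1.96 (SE 0.63) in S2P and 1.18 (SE 0.93) in S5P, where its value was 0.20 without induced replicate 2 and 2.39 without induced replicate 1. Of its S2P mock libraries only replicate 2 reached the filter level, so VQ8 too entered the S2P test through its induced libraries. VQ9 had 0.79 with both antibodies.

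Of 16 salicylate, camalexin and ethylene genes linked to WRKY factors, 15 were tested with each antibody; 6 in S2P and 7 in S5P had an unadjusted p under 0.05 on the higher side (5.19% and 4.32% of all genes) and 0 on the lower side. Their medians were 0.77 and 0.98, against 0.04 and -0.01 over all genes. The marker gene PR1 had too few reads to be tested. PAD3 (AT3G26830), a target of WRKY33 whose enzyme completes camalexin synthesis, had 29.1, 64.0 and 42.8 CPM in S2P induced libraries, against 6.25, 5.21 and 9.07 CPM in S2P mock libraries (2.57, SE 0.43, edgeR adjusted p = 0.0994). Its S2P mock libraries were all under the level of the low-count filter, so PAD3 entered that test through its induced libraries alone. The S2P groups were well apart, while in S5P they overlapped (1.37, SE 0.53) and PAD3 was at 0 in induced replicate 2. EDS1, a hub of defence signalling, had 1.44 (SE 0.40) in S2P and 1.86 (SE 0.46) in S5P, PBS3, which acts in salicylate synthesis, 1.13 (SE 0.38) and 1.56 (SE 0.39), and ACS2, an ethylene synthesis enzyme, 2.50 (SE 0.67) and 3.04 (SE 0.92). With 1 library left out, the S5P value of ACS2 ran from 1.54, without induced replicate 2, to 3.55, without induced replicate 3. None of the 35 genes of the lists passed in edgeR. DESeq2 called ACS2 in S2P (adjusted p = 0.0168) and ACS2 and EDS1 in S5P (0.0283 and 0.0292). Without S2P induced replicate 2, edgeR called MPK6 (adjusted p = 0.0294), EDS1 (0.0237) and ACS2 (0.00217) in S2P, among 7.68% of genes, and without S2P induced replicate 3 it called PAD3 (0.0370), among 0.16% of genes. Without S5P induced replicate 2 it called JAV1 (0.0151), EDS1 (0.0125) and PBS3 (0.00736) in S5P, among 1.16% of genes.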

How the data were processed

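The authors deposited raw read counts per gene for a whole gene, a gene body and a TSS window in each of 12 libraries, as 36 files. Per the submitters' processing notes, Trimmomatic, HTSeq and build TAIR10 were used; not given in the sources used here were versions, the aligner, the bounds of the windows and the use of strand. Organelle genes and the 5 summary lines of each count file stayed out of library sizes and tests. Names come from the RefSeq gene table of TAIR10.1, which matched 58 of 58 members (WRKY1 is ZAP1 and WRKY44 is TTG2 there). The members and gene lists were chosen with earlier results of these data known.

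From the deposited counts, induced and mock libraries were compared per antibody with edgeR's quasi-likelihood test (edgeR 4.0.16, R 4.3.3) on all nuclear genes, scaled by TMM. Genes were kept by filterByExpr (minimum count 10), and p was adjusted after Benjamini-Hochberg, with 0.05 as the threshold. SEs were derived from its F statistic. The script was tested on simulated data. Alternatives were RLE factors, total counts, no filter, DESeq2 1.42.0, limma 3.58.1 voom, all 12 libraries in the fit, a replicate block and leaving out each library. Members are named with tests if on a fixed list or among those with the smallest p. Same-numbered mock libraries of S5P and S2P deviated together (correlations of deviations from group means 0.129, 0.198 and 0.304 over 23793 genes). The mock comparison is therefore given with and without a block for the number. Same-numbered induced libraries of S5P and S2P had correlations of -0.192, -0.491 and -0.339. Mock replicate 3 was the deepest mock library with both antibodies, and the part of depth in these correlations was not tested. WRKY33 was named in the mock comparison after its blocked value was seen. Whole gene reads ranged from 115868 to 2537034 per library, and since no molecular identifiers mark single molecules, intervals cover counting error only.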

Additional observations from a re-analysis of the deposited data

How the results depend on the processing

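Depth in gene reads limits these tests: 45 to 52 of 58 members had under 10 reads in 4 libraries. Between 74.7% and 96.7% of the reads of a library were not aligned. In whole gene S2P, 3 genes and 0 members were called. RLE factors gave 0 genes, total counts 14, no filter 72, DESeq2 42 (with 1 member), limma voom 1, the replicate block 0, and leaving out the 3 S2P libraries under 250000 reads, chosen after seeing the data, 78. Leaving out 1 library gave 0 to 526 genes and 0 to 3 members. In whole gene S5P, 0 genes became 28 without a filter (1 member), 92 with DESeq2 (3 members), 32 with all 12 libraries (1 member), and 0 to 302 with 1 library left out (0 to 4 members). In the S2P gene body, 1 gene became 0 with RLE factors, 7 with total counts, 68 without a filter, 24 with DESeq2 (1 member), 0 with the replicate block and 0 to 340 with 1 library left out (0 to 2 members). In the S5P gene body, 0 genes became 49 without a filter (2 members), 52 with DESeq2 (1 member), 2 with the block, 46 with all 12 libraries (1 member) and 0 to 148 with 1 library left out (0 to 3 members). In the TSS window all 12 libraries gave 2 genes in S5P, and leaving out 1 library 0 to 3 genes in S2P and 0 to 11 in S5P. S5P against S2P in mock gave 2 genes without a filter and 230 with the replicate block (2 members). The interaction gave 0 genes and 0 members under each of its 18 alternatives. The cause of these changes was not tested.

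Signs turned for members with small fold changes. In S2P, total counts gave -0.043 for WRKY33 and -0.10 for WRKY18, the replicate block -0.033 for WRKY60, and leaving out the 3 shallow libraries -0.60 for WRKY33 and -0.43 for WRKY18. In S5P, WRKY54 had -0.00025 with total counts, -0.0048 with DESeq2 and -0.36 with limma voom, WRKY18 had 0.20 with voom and 0.071 with the block, and WRKY60 had -0.30 with voom. With 1 library left out, values ran in S2P from -0.40 to 1.07 for WRKY33, -0.44 to 0.80 for WRKY18, -1.31 to 0.63 for WRKY40 and -1.29 to 0.13 for WRKY22. In S5P they ran from -0.095 to 0.33 for WRKY54, -0.74 to 0.64 for WRKY33, -1.16 to 0.88 for WRKY40, -0.46 to 0.94 for WRKY18 and -0.060 to 0.59 for WRKY11; WRKY33 in mock S5P against S2P ran from -0.34 to 1.94. WRKY6, WRKY70, WRKY45, WRKY75 and WRKY46 kept their sign with both antibodies under each alternative in which they were tested. In whole gene S2P that was 14 alternatives for WRKY6 and WRKY70, but 11 for WRKY45, WRKY75 and WRKY46, which the low-count filter removed from the rest. Without S2P mock replicate 3, S2P induced replicate 1 or S2P induced replicate 2, only 20 or 21 members were left to test. Same-numbered induced and mock libraries did not deviate together in both antibodies (correlations -0.196 to 0.069 in S2P and 0.004 to 0.296 in S5P). The main fits of induced against mock had no block, and with the block they called 0 members. The induced libraries labelled replicate 3 carry another number in the names of their deposited counts, and the number of the label was kept. Whether the numbers pair induced with mock libraries is thus not settled. The summed TSS to gene body log2 difference of the family was 0.34 in S2P and 0.042 as a median over members with 1 read added. Without WRKY6 and WRKY70 it was 0.25. In S5P it was 0.53, 0.24 as a median over members, 0.22 without WRKY6 and WRKY70 and 0.12 without S5P induced replicate 2. The median is a weak check, as the added read weighs most in shallow libraries, such as S5P induced replicate 2 with a median of 2 reads per member. The S2P rise was not particular to the family. All genes with both windows had S2P log2 ratios of -1.51, -1.72 and -1.43 in induced and -1.90, -1.75 and -1.97 in mock libraries. In S5P these were -1.59, -0.976 and -1.75 in induced and -1.71, -1.71 and -1.86 in mock libraries.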

Other observations

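Genes of the lists that were not named by the rule shared patterns with members; they were picked after their values were seen, and these patterns were not tested. MPK3, a kinase that phosphorylates WRKY33, had 89.6, 121 and 57.0 CPM in S2P induced libraries, against 87.5, 57.3 and 234 CPM in S2P mock libraries, and 102, 25.9 and 133 CPM in S5P induced libraries, against 84.3, 63.4 and 314 CPM in S5P mock libraries. ACS6, an ethylene synthesis enzyme, had 127, 162 and 90.3 CPM in S2P induced libraries, against 56.3, 78.1 and 222 CPM in S2P mock libraries, and 143, 77.7 and 209 CPM in S5P induced libraries, against 65.2, 119 and 382 CPM in S5P mock libraries. As for WRKY33 and WRKY40, mock replicate 3 was the highest library with each antibody.

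WRKY31 had 113, 27.7 and 138 CPM in S2P induced libraries, against 81.3, 46.9 and 42.2 CPM in S2P mock libraries, and 67.3, 302 and 26.1 CPM in S5P induced libraries, against 50.9, 79.9 and 44.6 CPM in S5P mock libraries. ACS2 had 453, 92.5 and 390 CPM in S2P induced libraries, against 56.3, 93.7 and 52.0 CPM in S2P mock libraries, and 226, 854 and 94.6 CPM in S5P induced libraries, against 62.1, 93.7 and 32.9 CPM in S5P mock libraries. VQ8 had 38.8, 21.6 and 114 CPM in S2P induced libraries, against 6.25, 20.8 and 14.2 CPM in S2P mock libraries, and 21.8, 155 and 8.94 CPM in S5P induced libraries, against 20.7, 13.8 and 11.0 CPM in S5P mock libraries. For each of the 3 genes, S2P induced replicates 1 and 3 stood above S2P induced replicate 2, and S5P induced replicate 2 above the other S5P libraries. These are also the 3 induced libraries with the largest shares of reads outside genes, at 28.2%, 33.4% and 38.6%, against 16.1% to 22.2% in the other 3 induced libraries; the part of that share in the levels was not tested.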
